A study of Mus musculus with 14 samples.

Results

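The 8 enzymes and core subunits that write or remove repressive chromatin marks are described here in 14 mouse thymic lymphomas. They are the Polycomb genes Ezh1, Ezh2, Eed and Suz12, the DNA methyltransferase genes Dnmt1, Dnmt3a and Dnmt3b, and Tet2. They and the gene lists below were chosen by gene name, with earlier results of these data known. All 8 genes were measured, among 15800 named genes on exon arrays. Each probe set, a handful of probes, covers mostly a single exon. The 8 genes took up 172 of 194293 probe sets, counting only those annotated to 1 gene alone. Of the tumours, 7 are labelled Vav-SB and 7 CD4-SB. In both models the Sleeping Beauty (SB) transposon system mutates genes where a transposon inserts. As the model names tell, SB is tied to Vav, whose promoter is active throughout the blood lineages, or to CD4, whose promoter is active in developing and mature T cells. The labels give no age, no sex and no further allele, and every tumour carries its model's SB system, so no tumour without it serves as a control. The 7 CD4-SB tumours carry 4 title numbers and the 7 Vav-SB tumours carry 7. The labels do not say whether tumours that share a number share an animal, so p-values measure only the spread between these tumours. The series asks how the cell of origin bears on the mutations selected in this T-cell leukaemia.

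Polycomb repressive complex 2 (PRC2) places methyl groups on lysine 27 of histone H3 (H3K27). Its catalytic subunit is EZH2 or the paralog EZH1, and neither works without the core subunits EED and SUZ12. In the blood system Ezh2 is highest in dividing progenitors, including thymocytes, while Ezh1 is the form of resting cells. DNMT1 copies DNA methylation after replication, DNMT3A and DNMT3B set new methylation, and TET2 oxidises methylcytosine, which leads to its removal. In human T-cell leukaemia, loss-of-function lesions occur in EZH2, EED, SUZ12 and DNMT3A.

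RefSeq promoter windows of assembly GRCm38.p6 were found for all 8 genes, 12 windows in all, and the 250 bases before each start were searched. The windows of Ezh2, the gene that differed between the models, and of its paralog Ezh1 are printed, as is that of Suz12, which holds an E2F octamer. Capitals mark CCAAT, written ATTGG where it lies on the other strand, and the octamer.
Ezh2, chr6:47595031-47595280, minus strand: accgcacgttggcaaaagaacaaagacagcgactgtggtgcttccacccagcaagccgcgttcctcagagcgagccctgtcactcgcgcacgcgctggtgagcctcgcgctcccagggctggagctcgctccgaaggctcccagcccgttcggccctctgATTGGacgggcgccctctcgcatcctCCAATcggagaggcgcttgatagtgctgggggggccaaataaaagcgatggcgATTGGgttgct
Ezh1, chr11:101226464-101226713, minus strand: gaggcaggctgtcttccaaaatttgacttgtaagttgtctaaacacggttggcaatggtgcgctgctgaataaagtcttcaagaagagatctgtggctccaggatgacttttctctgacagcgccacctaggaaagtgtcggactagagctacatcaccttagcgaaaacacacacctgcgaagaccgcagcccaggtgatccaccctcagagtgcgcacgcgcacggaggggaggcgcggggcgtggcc
Suz12, chr11:79992856-79993105, plus strand: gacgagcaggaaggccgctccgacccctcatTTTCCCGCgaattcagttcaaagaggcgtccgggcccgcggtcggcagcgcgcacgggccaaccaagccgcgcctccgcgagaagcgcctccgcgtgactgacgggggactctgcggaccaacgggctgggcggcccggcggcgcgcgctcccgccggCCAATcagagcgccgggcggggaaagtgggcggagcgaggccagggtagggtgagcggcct
Dnmt1, chr9:20952824-20952853, minus strand, a stretch around its octamer: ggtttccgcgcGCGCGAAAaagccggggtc

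The 4 E2F octamers searched, on both strands, were TTTCCCGC, TTTCGCGC, TTTGCCGC and TTTGGCGC. E2F factors switch on genes of DNA replication. Of the 12 windows of the 8 genes, 2 held an octamer, that of Suz12 and 1 of the 3 of Dnmt1. In each case it lay 219 bases before the start. Of all 32851 promoter windows of the same length, 1.86% held an octamer. CCAAT is the box bound by the factor NF-Y. The Ezh2 window held 3 copies, the Suz12 window 1, Dnmt1 windows 3, 0 and 4, and those of Ezh1 and the other 4 genes 0. CCAAT was in 33.8% of all windows, and 3 or more copies were in 2.79%. A match of letters describes the window and does not show binding.

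Of the 8 genes, Ezh2 alone passed the test between models, and it was higher in Vav-SB tumours. The other 7 did not pass. Over all genes, 14.5% passed in either direction and 7.28% passed as higher and 7.18% as lower in Vav-SB, so 1 gene of 8 is close to the share of the whole array. The median difference of the 8 genes was 0.064 on the log2 scale, against 0.004 over all genes. The tumours of the 2 models overlapped for each of the 8 genes, while 4.04% of all genes did not overlap and 2.51% lay higher in every Vav-SB tumour. Values throughout are log2 levels, averaged over the probe sets of a gene, ± SD with n = 7 tumours per model, and differences are Vav-SB minus CD4-SB. Adjusted p-values are from limma with Benjamini-Hochberg adjustment over all genes unless another test is named, and 0.05 is the threshold. In bulk tumour RNA, fewer cells of a type and less RNA per cell cannot be told apart.

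The labelled tissue was checked against marker genes. The 11 measured of 12 T-lineage markers averaged 10.31 to 10.76 in Vav-SB tumours and 9.24 to 10.36 in CD4-SB tumours, above the median gene at 7.22. Of 40 markers of other cells (myeloid, dendritic, B and stromal), 36 were measured and averaged 7.70 to 8.51 in Vav-SB tumours and 8.13 to 9.42 in CD4-SB tumours. Of these 36 markers, 34 had a lower mean in Vav-SB, 12 passed the test as lower, and 1 passed as higher, Pecam1. A proliferation list, 15 of 18 measured, averaged 8.84 to 9.87 in Vav-SB tumours and 7.55 to 9.82 in CD4-SB tumours. Each of these 15 genes had a higher mean in Vav-SB. Only Tyms, thymidylate synthase, passed the test (difference 0.94, adjusted p = 0.0478), and its call was lost in 15 of 26 alternative settings. The share that other cells or cell division have in the differences below was not tested. Each of the 8 genes is also given with the other cell types' marker level or the proliferation level as a covariate of the fit.

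Ezh2, the PRC2 catalytic subunit of dividing cells, stood at 11.35, 11.46, 10.69, 11.45, 11.46, 11.05 and 11.39 in Vav-SB tumours 1 to 7, and at 9.54, 10.31, 9.52, 11.02, 9.88, 9.57 and 10.52 in CD4-SB tumours 1 to 7. In all, 6 Vav-SB tumours lay above every CD4-SB tumour, and the groups overlapped through Vav-SB tumour 3 and CD4-SB tumour 4. The means were 11.26 ± 0.29 in Vav-SB tumours and 10.05 ± 0.58 in CD4-SB, a 2.31-fold higher level (difference 1.21, SE 0.23, 95% interval 0.72 to 1.70, adjusted p = 0.00311). The call held in 25 of 26 alternative settings. It ended with the other cell types' marker level as a covariate, where the difference was 0.55 (adjusted p = 0.286), a setting in which the calls over all genes fell to 404 from 2284. With the proliferation level as a covariate the difference was 0.91 (adjusted p = 0.00308). CD4-SB tumours 2 and 7 had the lowest marker levels of their model, 8.13 and 8.32, within the Vav-SB range. Their Ezh2 levels were 10.31 and 10.52, below every Vav-SB tumour and above every other CD4-SB tumour except tumour 4. CD4-SB tumour 2 also had the lowest T-lineage level of all 14 tumours, 9.24. CD4-SB tumours 2 and 7 were picked here by their marker level and set beside the rest with no test. The share of other cells in the Ezh2 difference was not tested.

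**Figure D1:**
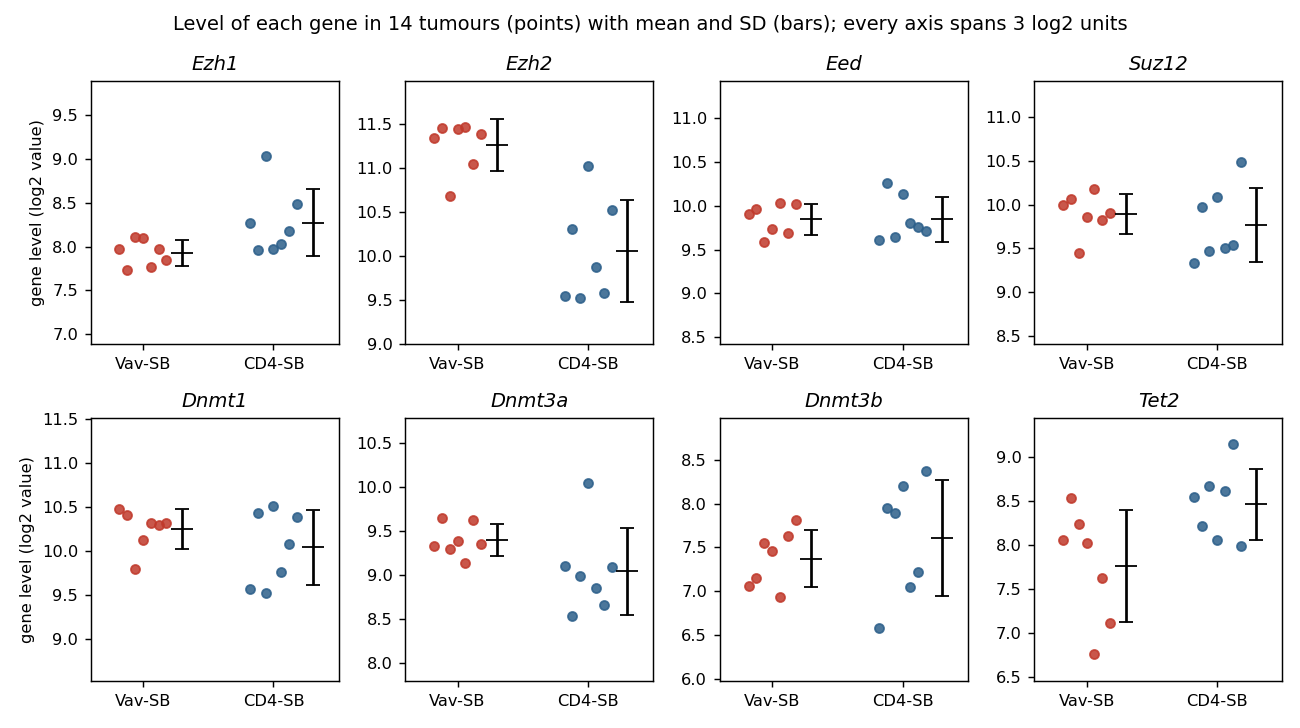
Level of each of the 8 genes in each tumour (y axis, mean log2 value of the gene's probe sets), Vav-SB in red on the left of each panel and CD4-SB in blue. Ezh2 runs from 10.69 to 11.46 in Vav-SB and from 9.52 to 11.02 in CD4-SB, and the models overlap in every panel.

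The difference in Ezh2 was shared by nearly all of its probe sets. All 23 Ezh2 probe sets had a higher mean in Vav-SB, with differences from 0.23 to 1.84 and a median of 1.30. By limma over all 194293 probe sets, 22 of them passed, against 8.45% of all probe sets, or 4.57% in that direction. Probe set 4668491 gave the smallest adjusted p, at 12.11 ± 0.27 in Vav-SB tumours and 10.66 ± 0.56 in CD4-SB (difference 1.44, adjusted p = 0.00112). In the next, 4869780, the difference was 1.30 (adjusted p = 0.00213), and in 4407662 it was 0.96 (adjusted p = 0.00214). For 1 of the 23 probe sets the models did not overlap. The share of all probe sets without overlap was not counted, so this number has no comparison.

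One Ezh2 probe set, 4485025, stood apart from the rest of the gene. It was at 9.76 ± 0.19 in Vav-SB tumours and 9.54 ± 0.29 in CD4-SB, a difference of 0.23 that did not pass (adjusted p = 0.388). Against the rest of Ezh2 its difference was lower by 1.03 on the log2 scale (limma's diffSplice, adjusted p = 0.0236), a call made for 1.33% of all probe sets tested and for no other of the 172. With the probe set's own spread (limma) the adjusted p was 0.00236, a call made for 3138 of 177030 probe sets. In simulated data diffSplice made 387 calls in unchanged genes, and the fit with the own spread made 6. The diffSplice call ended in 7 of the 14 fits that left out 1 tumour, namely Vav-SB tumours 1, 2, 4, 5 and 7 and CD4-SB tumours 3 and 6, with adjusted p up to 0.0764. It ended also when each title number kept 1 tumour (adjusted p = 0.120), and with the marker covariate (adjusted p = 0.495). The position of the probe set in Ezh2 was not used here, so its exon is not named.

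**Figure D2:**
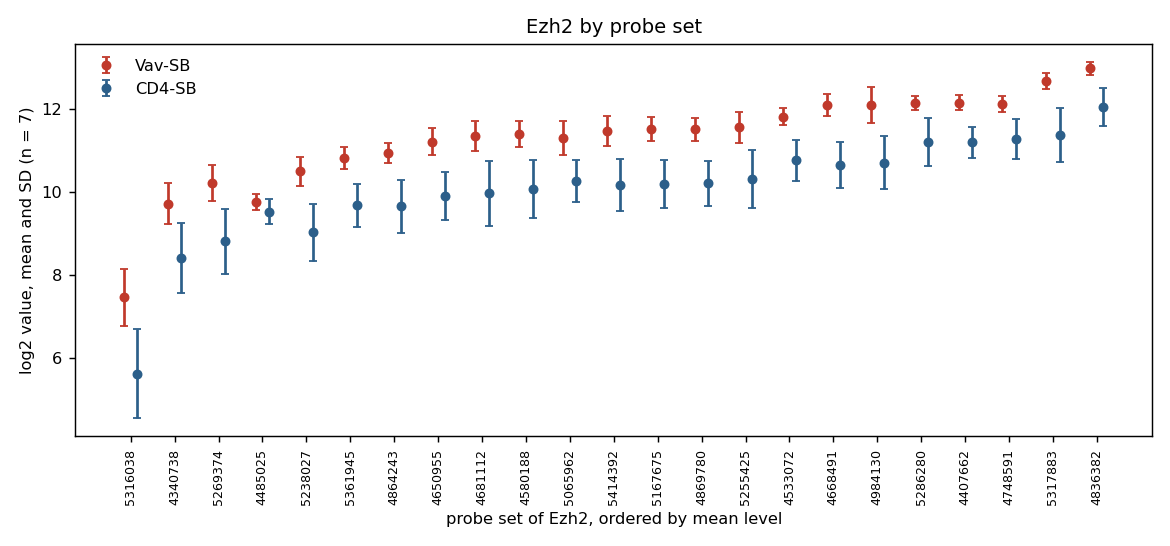
Mean and SD (n = 7) of each of the 23 Ezh2 probe sets (y axis, log2 value), ordered by mean level along the x axis, Vav-SB in red and CD4-SB in blue. Probe set 4485025 shows means of 9.76 in Vav-SB tumours and 9.54 in CD4-SB, closer than in any other Ezh2 probe set.

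Ezh1, the paralog associated with resting cells, had a lower mean in Vav-SB and did not pass. Its levels were 7.74 to 8.11 with a median of 7.97 in Vav-SB tumours, and 7.96 to 9.04 with a median of 8.17 in CD4-SB tumours. The groups overlapped, and CD4-SB tumour 3, at 9.04, was the highest of all. The means were 7.93 ± 0.15 in Vav-SB tumours and 8.27 ± 0.38 in CD4-SB (difference -0.34, 95% interval -0.66 to -0.03, adjusted p = 0.145). Without CD4-SB tumour 3 the difference was -0.22, with the marker covariate -0.15 and with the proliferation covariate -0.17. Of 20 Ezh1 probe sets, 19 had a lower mean in Vav-SB. None passed limma's adjusted test, and 9 had an unadjusted p under 0.05. The share of all probe sets at that unadjusted threshold was not counted. This count, and the like counts of Dnmt1, Dnmt3a and Dnmt3b below, therefore have no comparison.

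The log ratio of Ezh2 over Ezh1 in each tumour tests whether the paralogs differ between models by unequal amounts. It was 2.58 to 3.72 in Vav-SB tumours (mean 3.33 ± 0.40) and 0.49 to 3.05 in CD4-SB tumours (mean 1.78 ± 0.83). The models differed by 1.55 (two-sided exact permutation test over 3432 splits, p = 0.00117, adjusted over 3 ratios 0.00350). The difference ran from 1.34 to 1.77 when single tumours were left out. None of the 3 ratios was fitted with the marker or proliferation covariate, so their range under these is not given. By gene, the marker covariate brought the difference to 0.55 for Ezh2 and -0.15 for Ezh1, both smaller in size than without it. As a ratio of array signals it shows unequal change and gives no ratio of the 2 transcripts.

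Eed and Suz12, the core partners that EZH2 needs, did not pass. Eed, which reads the methylated histone tail, was at 9.85 ± 0.18 in Vav-SB (9.58 to 10.02) and 9.84 ± 0.25 in CD4-SB (9.60 to 10.26). The difference was 0.00, with a 95% interval of -0.25 to 0.25 (adjusted p = 0.992). It was -0.29 with the marker covariate and -0.12 with the proliferation covariate, and neither passed. Suz12, the scaffold of the complex, was at 9.89 ± 0.23 in Vav-SB (9.45 to 10.17) and 9.77 ± 0.42 in CD4-SB (9.33 to 10.49), a difference of 0.13 with an interval of -0.24 to 0.49 (adjusted p = 0.698). The Suz12 difference was -0.45 with the marker covariate and -0.08 with the proliferation covariate. It ran from 0.05 (without CD4-SB tumour 1) to 0.25 (without CD4-SB tumour 7) when single tumours were left out, and none of these fits passed. Both genes overlapped widely between models. The log ratio of Eed over Suz12 was -0.05 ± 0.12 in Vav-SB tumours and 0.07 ± 0.39 in CD4-SB (difference -0.12, exact permutation p = 0.492). Whether the ratio passed depended on CD4-SB tumour 7, singled out by its value, where it was -0.78. Without that tumour the difference was -0.26 (exact permutation, adjusted p = 0.00699).

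Dnmt1, the maintenance methyltransferase, was at 10.48, 10.40, 9.80, 10.13, 10.31, 10.29 and 10.31 in Vav-SB tumours 1 to 7, and at 9.57, 10.43, 9.52, 10.51, 9.76, 10.08 and 10.39 in CD4-SB tumours 1 to 7. The CD4-SB tumours lay on both sides of the Vav-SB range, with tumours 1, 3 and 5 below it. The means were 10.25 ± 0.23 in Vav-SB tumours and 10.04 ± 0.42 in CD4-SB (difference 0.21, interval -0.16 to 0.57, adjusted p = 0.484). It was -0.33 with the marker covariate, -0.04 with the proliferation covariate, 0.13 without CD4-SB tumour 1 and 0.12 without CD4-SB tumour 3, and none of these passed. Of its 41 probe sets, 40 had a higher mean in Vav-SB, with differences from -0.11 to 0.45. None passed limma's adjusted test, and 1 had an unadjusted p under 0.05.

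Dnmt1 followed the proliferation list within each model. Pearson's r was 0.99 in the 7 Vav-SB tumours (exact permutation p = 0.00159, adjusted over 16 correlations 0.0127; Spearman's rho 0.89) and 0.90 in the 7 CD4-SB tumours (exact permutation p = 0.000397, adjusted 0.00635; rho 0.96). Without the 2 tumours farthest from the median proliferation level, r was 0.84 in Vav-SB tumours and 0.95 in CD4-SB, with 5 tumours each and no adjusted p under the threshold. Vav-SB tumour 3, at 8.84, and CD4-SB tumour 3, at 7.55, had the lowest proliferation levels of their models, and Dnmt1 was lowest in both.

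The other 7 genes gave no correlation past the threshold by Pearson's r. Ezh2 reached 0.78 in Vav-SB (exact permutation, adjusted p = 0.133) and 0.79 in CD4-SB (adjusted p = 0.0889). By Spearman's rho, Ezh2 in CD4-SB passed (rho 0.96, exact permutation, adjusted p = 0.0222), as did Suz12 in CD4-SB (rho 0.93, adjusted p = 0.036), while their Pearson's r did not. Suz12 had r of 0.87 in Vav-SB tumours and 0.74 in CD4-SB (exact permutation, adjusted p = 0.0889 and 0.105). Eed had r of 0.79 in Vav-SB tumours and 0.64 in CD4-SB. Without the 2 farthest tumours r in Vav-SB was 0.23 for Suz12, 0.44 for Ezh2 and 0.42 for Eed, so these too rested on those tumours, while in CD4-SB it was 0.93 for Suz12, 0.90 for Ezh2 and 0.55 for Eed. Ezh1 ran the other way, with r of -0.67 in Vav-SB tumours and -0.74 in CD4-SB, and this rested on the 2 farthest tumours of each model, since r without them was 0.22 in both. Dnmt3a (0.17 in Vav-SB, 0.26 in CD4-SB), Dnmt3b (-0.35 in Vav-SB, 0.37 in CD4-SB) and Tet2 (-0.34 in Vav-SB, -0.60 in CD4-SB) did not pass either, and Dnmt3b in CD4-SB reached 0.96 without the 2 farthest tumours.

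**Figure D3:**
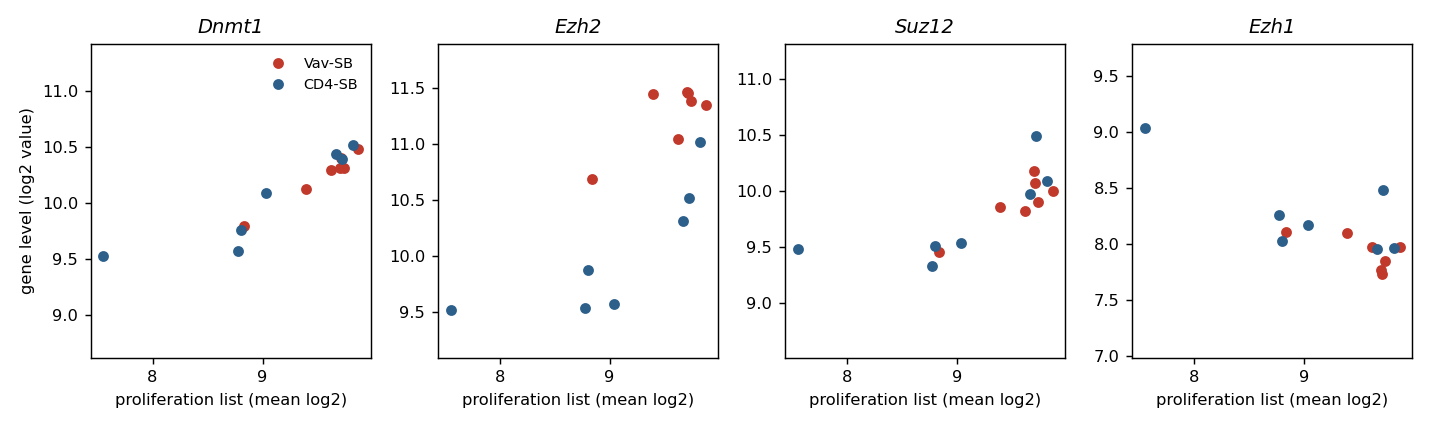
Level of Dnmt1, Ezh2, Suz12 and Ezh1 (y axes, mean log2 value) against the mean log2 level of the proliferation list (x axes) in each tumour, Vav-SB in red and CD4-SB in blue. Dnmt1 is higher in tumours with a higher proliferation level (r of 0.99 in Vav-SB tumours and 0.90 in CD4-SB). Ezh2 had r of 0.78 in Vav-SB tumours and 0.79 in CD4-SB.

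Dnmt3a, a de novo methyltransferase needed in blood stem cells and altered in leukaemia, was at 9.33, 9.65, 9.29, 9.39, 9.14, 9.62 and 9.36 in Vav-SB tumours 1 to 7, and at 9.11, 8.54, 8.99, 10.05, 8.85, 8.66 and 9.09 in CD4-SB tumours 1 to 7. In all, 6 CD4-SB tumours lay below all Vav-SB tumours, and CD4-SB tumour 4 lay above all of them. The means were 9.40 ± 0.18 in Vav-SB tumours and 9.04 ± 0.49 in CD4-SB (difference 0.36, interval -0.04 to 0.75, adjusted p = 0.234). That 1 tumour decided the call. Without it the difference was 0.52 (adjusted p = 0.00918), and of the 14 fits that left out 1 tumour only this 1 passed. In that fit 18 of 31 Dnmt3a probe sets passed with differences of 0.53 to 1.46, against 4.58% of all probe sets as higher. With all tumours 0 of 31 passed by limma. At an unadjusted p under 0.05 there were 11, with no share of all probe sets counted at that threshold. With the marker covariate the Dnmt3a difference was 0.47 and with the proliferation covariate 0.28, and neither passed.

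CD4-SB tumour 4 was set against the other 6 CD4-SB tumours by probe set, a comparison chosen after the values were seen and given with no test. In 27 of 31 Dnmt3a probe sets it exceeded all 6, and its median distance from their median was 1.26 on the log2 scale. The same tumour had the highest CD4-SB level of Ezh2, in 23 of 23 probe sets, with a median distance of 1.17. CD4-SB tumour 7 exceeded the other 6 in 17 of 20 Suz12 probe sets, with a median distance of 0.97. CD4-SB tumour 3 did so in 17 of 20 Ezh1 probe sets, with a median distance of 0.97. Vav-SB tumour 3 was below the other 6 Vav-SB tumours in 23 of 23 Ezh2 probe sets.

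**Figure D4:**
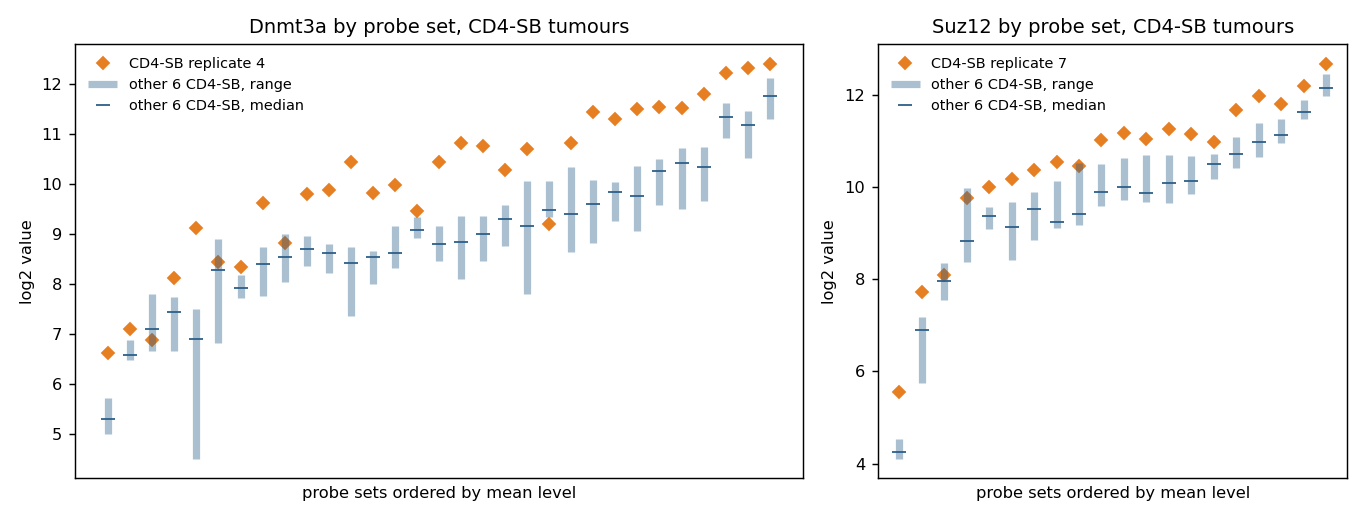
Log2 value of each Dnmt3a probe set in CD4-SB tumour 4 (left) and each Suz12 probe set in CD4-SB tumour 7 (right), as orange diamonds against the range (bar) and median (tick) of the other 6 CD4-SB tumours, ordered by mean level. The diamond lies above the bar in 27 of 31 Dnmt3a probe sets and in 17 of 20 Suz12 probe sets.

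Dnmt3b, the other de novo enzyme, was at 6.94 to 7.82 with a median of 7.46 in Vav-SB tumours, and 6.58 to 8.37 with a median of 7.89 in CD4-SB tumours, so that the CD4-SB range enclosed the Vav-SB range. The means were 7.37 ± 0.33 in Vav-SB tumours and 7.61 ± 0.66 in CD4-SB (difference -0.24, interval -0.79 to 0.31, adjusted p = 0.609). It was -0.41 without CD4-SB tumour 1, -0.14 without tumour 4 and -0.11 without tumour 7. With the marker covariate it was -0.73 and with the proliferation covariate -0.34, and none of these fits passed. Of 15 Dnmt3b probe sets, 14 had a lower mean in Vav-SB. None passed limma's adjusted test, and 1 had an unadjusted p under 0.05. The log ratio of Dnmt3b over Dnmt3a was -2.03 ± 0.33 in Vav-SB tumours and -1.43 ± 0.69 in CD4-SB (difference -0.59, exact permutation p = 0.0647, adjusted 0.0970). Whether this ratio passed depended on CD4-SB tumour 1, whose Dnmt3b level of 6.58 was the lowest of all. Without that tumour the difference was -0.78 (exact permutation, adjusted p = 0.0131). The other 13 fits that left out 1 tumour did not pass, with adjusted p up to 0.188 by the same test. The adjustment covers the 3 ratios and not the 14 fits.

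Tet2, the dioxygenase that oxidises methylcytosine, had a lower mean in Vav-SB but did not pass. It was at 8.06, 8.54, 8.24, 8.02, 6.76, 7.63 and 7.11 in Vav-SB tumours 1 to 7, and at 8.56, 8.21, 8.67, 8.06, 8.62, 9.15 and 7.99 in CD4-SB tumours 1 to 7. Vav-SB tumours 5, 6 and 7 lay below every CD4-SB tumour, and the other 4 overlapped them. The means were 7.76 ± 0.64 in Vav-SB tumours and 8.47 ± 0.41 in CD4-SB (difference -0.70, interval -1.26 to -0.14, adjusted p = 0.0908). The difference had the same sign in each of 26 alternative settings and passed in 0 of them, with adjusted p from 0.0518 to 0.675. It was -0.33 with the marker covariate and -0.52 with the proliferation covariate. All 5 Tet2 probe sets had a lower mean in Vav-SB, from -0.999 to -0.457, and in Vav-SB tumour 5 all 5 lay below the other 6 Vav-SB tumours.

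The other genes of these pathways were read from lists, 40 of 47 genes measured. Of the 40, 4 passed as higher in Vav-SB, 2 passed as lower and 34 did not pass, with a median difference of 0.103. These 6 of 40 are close to the 14.5% of all genes. The other 7 are not analysed here.

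Among 7 further PRC2 proteins, Mtf2 alone passed, which is close to the 14.5% of all genes. Mtf2, the PCL2 subunit that guides PRC2 to unmethylated CpG islands, ran from 11.02 to 12.05 in Vav-SB tumours and from 9.70 to 10.65 in CD4-SB tumours. The groups did not overlap, as for 4.04% of all genes. The means were 11.66 ± 0.39 in Vav-SB tumours and 10.18 ± 0.36 in CD4-SB, a 2.80-fold higher level in Vav-SB (difference 1.49, adjusted p = 0.000184). It passed in all 26 alternative settings, the marker covariate included. Jarid2, which recruits PRC2, did not pass (difference 0.39, adjusted p = 0.0819).

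PRC1, the complex that places ubiquitin on histone H2A and binds methylated H3K27, had 19 of 21 genes measured, of which 2 passed as higher and 1 as lower, again close to the 14.5% of all genes. Phc1, a Polyhomeotic subunit, was at 8.80 ± 0.12 in Vav-SB tumours and 8.44 ± 0.11 in CD4-SB with no overlap (1.28-fold higher, adjusted p = 0.0064). Pcgf3, a RING subunit of a variant complex, was at 8.86 ± 0.09 in Vav-SB tumours and 8.39 ± 0.25 in CD4-SB (1.38-fold higher, adjusted p = 0.00881). Cbx7, a reader of methylated H3K27, was at 7.35 ± 0.15 in Vav-SB tumours and 7.83 ± 0.21 in CD4-SB (1.39-fold lower, adjusted p = 0.00681). The marker covariate ended all 3 calls (adjusted p = 0.261 for Phc1, 0.138 for Pcgf3 and 0.117 for Cbx7), while all 3 passed with the proliferation covariate (0.0162 for Phc1, 0.0119 for Pcgf3, 0.0205 for Cbx7), and the Cbx7 call was also lost with bright probe sets only (adjusted p = 0.254). Bmi1, the subunit best known for blood stem cell self-renewal, did not pass (difference 0.49, adjusted p = 0.0708).

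Several PRC1 genes were far higher in 1 tumour than in the rest of its model. These were singled out after their values were seen. Scmh1, a Polycomb protein with MBT domains, was at 11.51 in CD4-SB tumour 5 and between 7.03 and 8.92 in the other 6 CD4-SB tumours, and all 17 of its probe sets exceeded those tumours. Rnf2, the RING1B ubiquitin ligase, was at 11.20 in CD4-SB tumour 1 and between 7.89 and 8.72 in the other 6, and all 7 of its probe sets exceeded them. Pcgf2, the paralog of Bmi1, was at 9.71 in Vav-SB tumour 5 and between 7.02 and 7.99 in the other 6 Vav-SB tumours, with 14 of 15 probe sets above them.

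None of 3 measured genes of histone H2A deubiquitination and H3K27 demethylation passed limma's test, nor had any an unadjusted p under 0.05, Kdm6a, a demethylase lost in human T-cell leukaemia, among them (difference -0.03, adjusted p = 0.941). Of 11 measured partners of DNA methylation, 2 passed, 1 as higher and 1 as lower, which is close to the 14.5% of all genes. Both make alpha-ketoglutarate, the cofactor of TET enzymes. Idh2, the mitochondrial isocitrate dehydrogenase, was at 9.66 ± 0.24 in Vav-SB tumours and 8.50 ± 0.43 in CD4-SB with no overlap (2.24-fold higher, adjusted p = 0.00071), in all 26 alternatives too. Idh1, the cytosolic form, was at 8.31 ± 0.38 in Vav-SB tumours and 8.98 ± 0.33 in CD4-SB (1.59-fold lower, adjusted p = 0.0227). The Idh1 call ended with the marker covariate (adjusted p = 0.571), with the proliferation covariate (0.0678) and without CD4-SB tumours 1 and 3 (0.0855). Uhrf1, which brings DNMT1 to newly copied DNA, did not pass (10.93 ± 0.34 in Vav-SB, 9.78 ± 1.09 in CD4-SB, adjusted p = 0.0637), nor did Dnmt3l, the cofactor of de novo methylation (difference -0.04, adjusted p = 0.848).

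**Figure D5:**
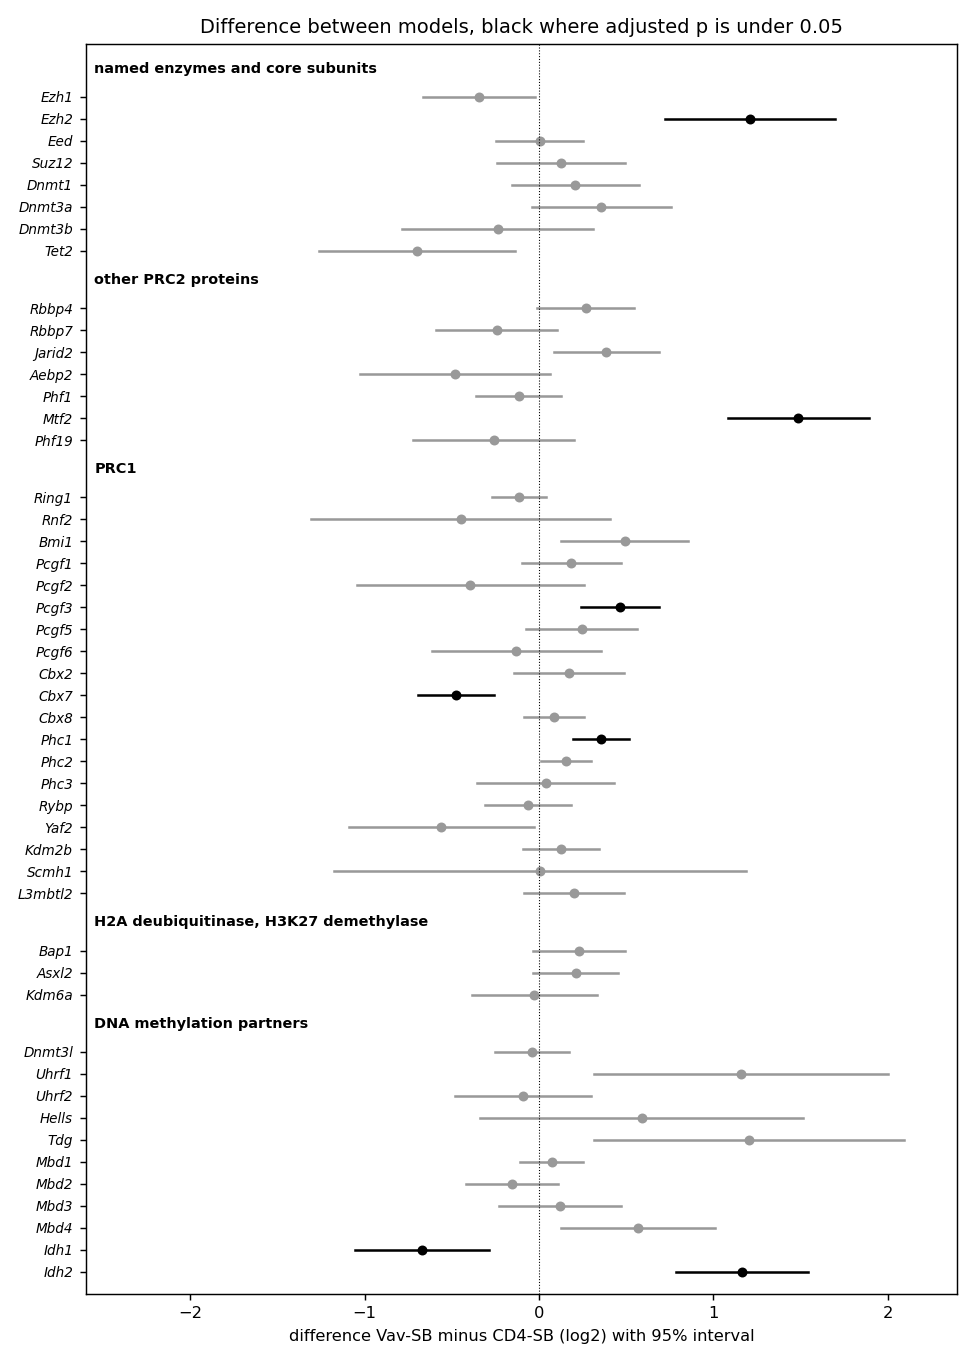
Difference of each of the 8 genes and 40 other Polycomb and DNA methylation genes (x axis, Vav-SB minus CD4-SB, log2, with 95% interval), in black where the adjusted p is under 0.05. Ezh2 at 1.21, Mtf2 at 1.49 and Idh2 at 1.16 lie farthest to the right among the genes that passed.

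Genes that these enzymes are known to silence were read the same way. Of 12 classic Polycomb targets, 0 passed limma's test as higher in Vav-SB tumours and 1 as lower, with a median difference of -0.201. Over all genes 7.28% passed as higher and 7.18% as lower. At an unadjusted p under 0.05, 0 of the 12 were higher and 6 lower, against 13.4% of all genes as higher and 14.4% as lower. This looser threshold is not the one used for calls and was not applied to most other lists. Of the 6, Meis1 alone is given below with the covariates. Of the 36 markers of other cells, 34 also had a lower mean in Vav-SB, and the share of other cells in the 6 differences was not tested. All of the 12 except Cdkn2b had a mean level over all tumours below the median gene at 7.22. The smallest of the 6 lower differences was -0.19, for Foxc1. The gene that passed was Meis1, a homeobox gene of blood progenitors, at 6.42 ± 0.40 in Vav-SB tumours and 7.52 ± 0.43 in CD4-SB (2.15-fold lower, adjusted p = 0.00295), which ended as a call with the marker covariate (adjusted p = 0.194) and passed with the proliferation covariate (0.00479). Cdkn2a, the tumour suppressor locus held down by Polycomb, did not pass (difference -0.42, adjusted p = 0.107). Of 9 measured germline genes that DNA methylation keeps silent in body tissues, 1 passed, where 14.5% of all genes did. Brdt, a testis bromodomain protein, was at 6.19 ± 0.22 in Vav-SB tumours and 5.20 ± 0.18 in CD4-SB with no overlap (difference 1.00, adjusted p = 4.46e-05). With bright probe sets only the difference was 1.74. Both levels lie below the median gene, where folds are understated on arrays.

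For each of the 8 genes, the 2 genes that varied most like it were sought across the 14 tumours, after each model's mean was removed, among 7899 genes brighter than the median. Dnmt1 varied most like Mcm4 (r = 0.985) and Mcm6 (r = 0.975), subunits of the helicase that opens DNA for replication and both on the proliferation list. Ezh2 varied most like Jade3 (r = 0.957) and Psmd11 (r = 0.954), and Suz12 most like Ddx52 (r = 0.949) and Nup88 (r = 0.935). Eed was closest to Agpat5 (r = 0.931) and Cops2 (r = 0.928), Dnmt3a to Erp29 (r = 0.907) and Ap1b1 (r = 0.898), and Dnmt3b to Cep68 (r = 0.899) and Impdh1 (r = 0.895). Ezh1 with Aldh6a1 (r = 0.885) and Angel1 (r = 0.88), and Tet2 with Ap3m2 (r = 0.872) and Vopp1 (r = 0.835), had the loosest likeness. These correlations describe 14 tumours that share amplification and array steps, and none was tested. Some were unequal within the models. For Dnmt3b with Impdh1 r was 0.467 in Vav-SB tumours and 0.979 in CD4-SB. For Tet2 with Vopp1 it was 0.924 in Vav-SB tumours and 0.577 in CD4-SB. Dnmt1 with Mcm4 was alike in both (0.995 in Vav-SB, 0.984 in CD4-SB).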

How the data were processed

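RNA of 14 thymic lymphomas, 7 Vav-SB and 7 CD4-SB by the strain label, was measured on mouse exon arrays. Per the labels' protocols, total RNA of frozen tumours was amplified isothermally, fragmented and labelled with biotin, a step that can widen the spread between arrays and favour some exons over others. The authors deposited 1 log2 value per probe set and tumour. The submitters' processing notes name Partek and RMA. Their versions, the background step and the log base were not given in the sources used here. Values of 2.03 to 14.03 are read as log2. Array medians of 7.462 to 7.499 show aligned distributions, so a change in total RNA cannot be seen. The number of arrays limits the precision.

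Of 194293 probe sets, 179496 had 1 gene symbol, 1328 several and 13469 none. Symbols were updated through a gene table of assembly GRCm38.p6 (13727 current, 2020 replaced through a synonym, 32 with several replacements, 19 kept, 5 unmatched). A gene's level is the mean over its probe sets.

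Genes, single probe sets and probe sets against the rest of their gene (diffSplice, 177030 probe sets) were tested with limma 3.58.1 in R 4.3.3 and Benjamini-Hochberg adjustment over the whole table. The fits were tested on simulated data, where diffSplice made calls in unchanged genes, so the probe set's own spread is given beside it. Log ratios and correlations had exact permutation tests. Alternatives changed the summary, normalization, filter, prior, weights, covariates and tumours. The 8 genes and the lists were chosen with earlier results of these data known. Named are the 8 genes, up to 6 genes per list past the threshold, some of their partners, and others said to be picked after seeing their values.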

Additional observations from a re-analysis of the deposited data

Results flagged for a closer look

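A tumour was singled out where its gap to the nearest of the other 6 tumours of its model exceeded Dixon's critical value for 7 samples. Among 44 groups (named genes, log ratios and marker levels in each model) 3 were singled out, and among 80 groups of the other Polycomb and DNA methylation genes 8 were, where chance gives about 1 in 20.

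Dnmt3a stood at 10.05 in CD4-SB tumour 4, with the nearest CD4-SB tumour at 9.11. Eed minus Suz12 was -0.78 in CD4-SB tumour 7, with the nearest at 0.05, and Suz12 was the gene that was high there. Tyms, thymidylate synthase, was at 8.32 in Vav-SB tumour 3, the nearest at 9.07, and the same tumour had the lowest proliferation level of its model, 8.84.

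Single tumours stood high for 5 other genes. Scmh1 was at 11.51 in CD4-SB tumour 5 (nearest 8.92), with a median distance of 3.96 over 17 probe sets from the median of the other CD4-SB tumours. Rnf2 was at 11.20 in CD4-SB tumour 1 (nearest 8.72), with a median distance of 2.80 over 7 probe sets. Pcgf2 was at 9.71 in Vav-SB tumour 5 (nearest 7.99), with a median distance of 2.31 over 15 probe sets. Uhrf2, a paralog of Uhrf1, was at 10.23 in CD4-SB tumour 5 (nearest 9.30), and Kdm6a was at 9.76 in CD4-SB tumour 4 (nearest 8.96). Single tumours stood low in Vav-SB for Scmh1, at 7.43 in tumour 6 (nearest 8.11), for Rbbp7, a histone-binding PRC2 subunit, at 10.001 in tumour 3 (nearest 10.49), and for Bap1, the H2A deubiquitinase, at 8.23 in tumour 3 (nearest 8.49). Transposon insertions in these tumours were not analysed here.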

How the results depend on the processing

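No called result changed direction. Eed (-0.29 to 0.07), Suz12 (-0.45 to 0.30) and Dnmt1 (-0.33 to 0.41), which were not called, changed sign among the 26 alternatives. The marker covariate changed the most: 0 of the 8 genes and 0 of their 172 probe sets passed, against 1 and 22, and calls over all genes fell to 404 from 2284, over single probe sets to 2640 from 16412 and over probe sets against their gene to 1345 from 2355. With bright probe sets only, the last count was 1348. Leaving out single tumours, 1 to 2 of the 8 genes passed as higher (2 without CD4-SB tumour 4), 21 to 40 probe sets passed (40 without that tumour), and 0 to 4 passed against their gene. The main count of the last was 1, with 2 for bright probe sets only, 2 after quantile normalization and 0 with 1 tumour per title number. It was 0 without Vav-SB tumour 1, 2 or 7 or CD4-SB tumour 3, 2 without CD4-SB tumour 1 and 4 without CD4-SB tumour 4. In those fits the difference in Eed minus Suz12 ran from -0.26 to -0.09, and that in Dnmt3b minus Dnmt3a from -0.78 to -0.45. Eed minus Suz12 passed with 1 tumour per title number (-0.25, exact permutation, adjusted p = 0.0364). That setting also left out CD4-SB tumour 7, so it is no separate result from the fit without that tumour. Without the 2 farthest tumours, 0 of 16 correlations passed, against 2, where 5 tumours leave few orderings. The causes were not tested. Leaving out CD4-SB tumours 1 and 3, and the probe set's own spread, were chosen after seeing the data. No paired analysis was possible because replicates were numbered in accession order and the models share no title number. With the title number as a random block (correlation -0.162), Ezh2 kept its call.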
